A study of Mus musculus with 46 samples.

Results

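Transcript levels were examined for 34 mouse genes of the cytosolic and mitochondrial heat shock system, chosen by symbol as members of the HSP70, HSP90, small heat shock and J-domain families with their cochaperones. All 34 symbols were found among the 45777 symbols of each deposited count table. By role they comprised 5 HSP70 genes of the cytosol, 3 HSP110 genes, 7 genes for HSP90 and its cochaperones, 7 J-domain genes and 4 mitochondrial genes. The remaining members were 3 small heat shock genes grouped with Bag3, the heat shock transcription factors Hsf1 and Hsf2, and the HSP70 relatives Hspa13 and Hspa14. Hsf1 and Hsf2 encode regulators and not chaperones, and the Hspa13 product is a microsomal protein.

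Bulk RNA-seq libraries were made from gut of male C57BL/6J mice given imeglimin, given metformin, or labelled Control. Metformin, a biguanide, and imeglimin, a tetrahydrotriazine related to it in structure, are both glucose-lowering drugs. In the acute experiment the drug was given by mouth at 600 mg/kg and colon was taken 6 h later. In the chronic experiment the drug was in the drinking water at 3 mg/mL for 4 weeks, and the tissues were colon and the proximal, the middle and the distal part of the small intestine. Each of the 15 groups held 3 libraries, 45 in all. The labels do not give the animals' age, what the controls received, or whether the libraries of a group came from separate animals. P-values therefore reflect library-to-library spread, which may be technical. A 12-week single-cell sample of the same series was not analysed here.

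Heat shock proteins bind unfolded or partly folded proteins and keep them from aggregating until they fold or are degraded. HSP70 takes up clients delivered by J-domain proteins, HSP110 proteins exchange its nucleotide, and the Stip1 product passes clients on to HSP90. In mitochondria, mortalin (Hspa9) and the chaperonin pair Hspd1 and Hspe1 fold imported proteins. When unfolded protein accumulates, the transcription factor HSF1 trimerises and binds heat shock elements, which are arrays of inverted GAA units, in the promoters of these genes. In the intestinal epithelium, inducible HSP70 and HSPB1 are known for protecting cells against heat, oxidants and inflammatory injury.

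Depth was similar across libraries, with deposited totals of 31606797 to 47324301 counts, and the 34 members together held 0.385% to 0.866% of the counts. Levels are given as CPM, counts scaled to the library total and its TMM factor, and differences as log2 fold changes ± SE from edgeR's quasi-likelihood test, with Benjamini-Hochberg adjustment over all genes tested and a threshold of 0.05. Epithelial markers were present in every library, with summed levels of 9136 to 18900 CPM over 8 genes. In the 4-week colon, the Control 3 library stood apart with 24300 CPM over 9 pancreatic acinar markers, against 192 to 309.9 CPM in the other 8 libraries of that set. Counts of members called in 4-week colon are given with and without it. Counts of members at an unadjusted p under 0.05, and those from DESeq2, are given without the share of all genes under the same rule. Nothing about the members is read from these counts. In bulk tissue, fewer cells of a type and less RNA per cell cannot be told apart.

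The start-site regions of 6 members are shown because they carry the sequence that HSF1 recognises, in 1, 2 or more copies, in genes that differed widely in their response. Sequences were read from the RefSeq promoter table of the build GRCm38.p6, in which 27 of the 34 members had a window of 250 bases before to 50 bases after the start. Capitals mark each match to GAANNTTC or TTCNNGAA.
Hspa1a, chr17:34972157-34972306, minus strand, the 150 bases before the start: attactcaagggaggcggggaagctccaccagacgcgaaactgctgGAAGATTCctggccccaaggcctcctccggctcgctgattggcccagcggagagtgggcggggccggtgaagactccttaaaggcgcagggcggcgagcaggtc
Hspa1b, chr17:34959239-34959388, minus strand, the 150 bases before the start: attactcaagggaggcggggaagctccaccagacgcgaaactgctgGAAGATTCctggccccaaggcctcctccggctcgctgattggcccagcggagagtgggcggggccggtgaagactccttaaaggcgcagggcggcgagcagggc
Hsph1, chr5:149636288-149636410, minus strand, 123 bases across the start: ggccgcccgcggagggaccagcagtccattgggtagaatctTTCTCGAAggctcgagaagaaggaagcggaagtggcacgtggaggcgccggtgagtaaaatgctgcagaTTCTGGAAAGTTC
Chordc1, chr9:18292172-18292285, plus strand, 114 bases across the start: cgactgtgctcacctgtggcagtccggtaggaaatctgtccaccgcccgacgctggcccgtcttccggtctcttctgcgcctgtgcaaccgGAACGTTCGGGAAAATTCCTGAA
Hspe1, chr1:55088023-55088147, plus strand, the 125 bases before the start: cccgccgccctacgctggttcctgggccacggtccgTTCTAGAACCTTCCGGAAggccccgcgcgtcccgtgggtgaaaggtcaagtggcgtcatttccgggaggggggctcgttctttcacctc
Hspb1, chr5:135887769-135887918, plus strand, the 150 bases before the start: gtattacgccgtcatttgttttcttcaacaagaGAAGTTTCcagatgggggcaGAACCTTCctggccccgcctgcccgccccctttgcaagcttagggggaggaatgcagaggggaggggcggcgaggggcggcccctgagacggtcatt

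The letters GAANNTTC, searched on both strands, occurred in the windows of 12 of the 27 members (44.4%), against 9.04% of the windows of 27025 genes. The inverse pair TTCNNGAA occurred in 6 members (22.2%), against 9.6% of all genes. The array of 3 units, in which GAANNTTC and TTCNNGAA overlap by 1 shared unit, was present in 5 members (18.5%), namely Hspd1, Hspe1, Dnajb6, Hsph1 and Chordc1, against 0.662% of all genes. The array of 4 units, which contains the shorter one, occurred in Chordc1 (3.7% of members), against 0.0148% of all genes. Hspd1 and Hspe1 lie head to head and share their matches. The ATF4 element TGATGNAA matched 1 member, Hspa14 (3.7%, against 4.51% of all genes), and the CCAAT box CCAAT matched 14 (51.9%, against 41.1%). The members without a window among those kept were Hsp90aa1, Hsp90ab1, Hspa8, Cryab, Hsf1, Hspa9 and Hspa13. Windows on chromosome 18 were left out for members and for all genes alike, so a window missing here may exist in the source. A match is a description of letters and not a bound site.

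At 6 h after oral imeglimin, 26 of the 34 members were higher in colon than in controls and 0 were lower. After metformin, 24 were higher and 0 lower, and all 24 were among the 26. Over all genes tested, 18.1% were called higher and 15.1% lower with imeglimin, and 11.3% higher and 8.37% lower with metformin (33.3% and 19.7% in either direction). The median log2 fold change of the members was 0.81 with imeglimin, against -0.03 for all genes, and 0.63 with metformin, against -0.04 for all genes. The members' summed level was 8448 to 9130 CPM in imeglimin colon and 6251 to 6964 CPM in metformin colon, against 3958 to 4065 CPM in control colon.

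**Figure D1:**
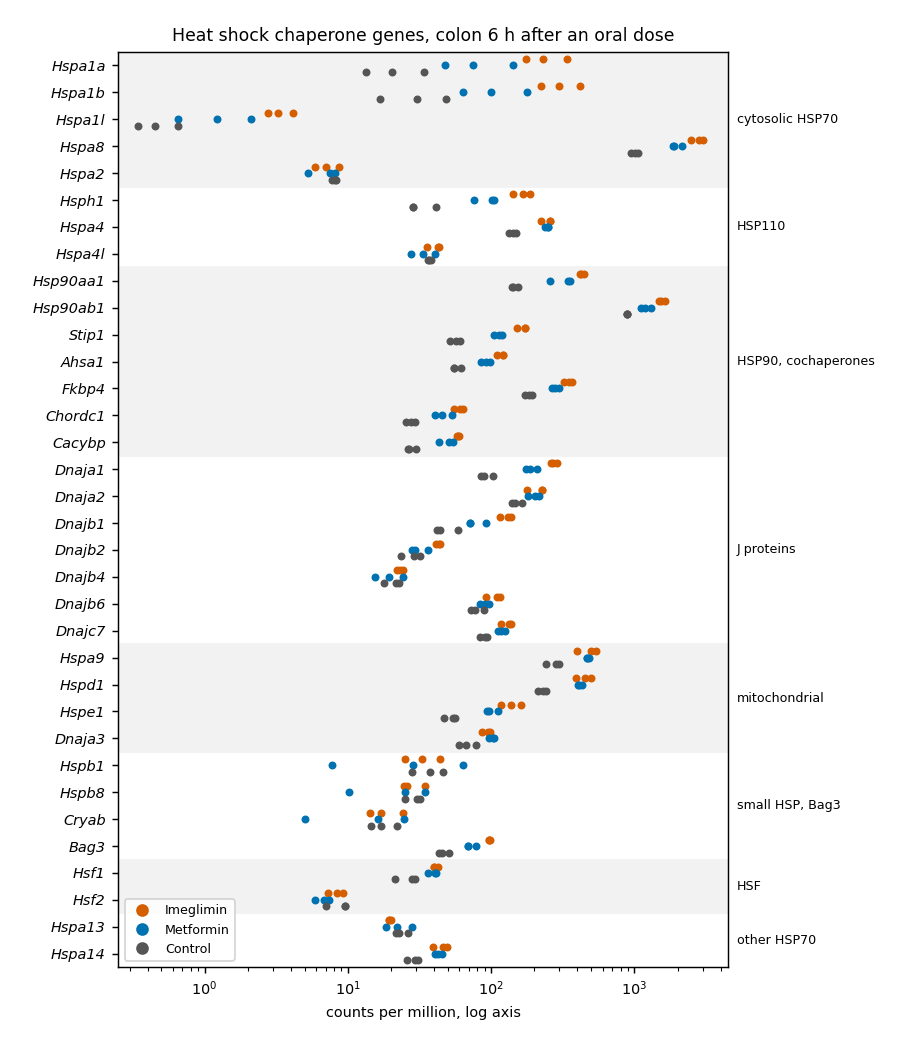
Levels of the 34 members in colon 6 h after dosing, in CPM on a log axis, with 1 point per library (3 each for imeglimin, metformin and control) and genes grouped by role. Points of both drugs lie right of the controls for the HSP90 and mitochondrial groups and for Hspa1a, Hspa1b, Hspa8, Hsph1, Hspa4 and Bag3, while the 3 small heat shock genes overlap.

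The inducible HSP70 pair showed the widest changes. Hspa1a, the stress-inducible cytosolic HSP70, was at 339, 175 and 229.9 CPM in imeglimin colon and 142.5, 47.8 and 74.5 CPM in metformin colon, against 13.3, 20.2 and 33.9 CPM in control colon. Every library of either drug was above every control, and the narrowest gap was between the lowest metformin library and the highest control. Hspa1a averaged 248 ± 83.4 CPM with imeglimin and 88.3 ± 48.8 CPM with metformin, against 22.45 ± 10.5 CPM in controls (SD, n = 3 each). These levels were 11.0-fold higher with imeglimin (log2 fold change 3.46 ± 0.44, edgeR adjusted p = 0.00029) and 3.92-fold higher with metformin (1.97 ± 0.42, edgeR adjusted p = 0.00812). Its twin Hspa1b was at 417, 223 and 295 CPM with imeglimin and 177, 64.1 and 100.2 CPM with metformin, against 16.8, 30.2 and 48.1 CPM in controls. The groups again did not overlap, and the edgeR log2 fold changes were 3.30 ± 0.43 (adjusted p = 0.000352) and 1.84 ± 0.41 (adjusted p = 0.0106). The transcripts of the twins are 99.1% identical over 2200 aligned bases, with an identical run of 638 bases, so reads can be split between them and each value alone is uncertain. Hspa1a held 33.3% to 44.9% of the pair's counts over all libraries. With the counts of both summed into 1 gene, an alternative chosen after the data were seen, the log2 fold changes were 3.37 with imeglimin (edgeR adjusted p = 0.000328) and 1.90 with metformin (adjusted p = 0.00944).

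The other cytosolic HSP70 genes covered a wide range of basal levels. Hspa1l, a testis-enriched HSP70 encoded beside Hspa1a and 85.3% identical to it in transcript sequence, was at 4.17, 2.75 and 3.27 CPM with imeglimin and 2.12, 0.65 and 1.23 CPM with metformin, against 0.342, 0.451 and 0.653 CPM in controls. The imeglimin libraries lay above all controls, whereas 1 metformin library lay level with the highest control. The Hspa1l and Hspa1a transcripts share an identical run of 233 bases. The part of Hspa1a reads in these low Hspa1l values was not tested, so they are uncertain. The log2 fold change was 2.80 ± 0.42 with imeglimin (edgeR adjusted p = 0.000725) and 1.45 ± 0.42 with metformin (edgeR adjusted p = 0.0342). The metformin call was lost without Control 1 (adjusted p = 0.116), Control 2 (0.0937), Metformin 1 (0.125) or Metformin 3 (0.0581), and with only the metformin and control libraries in the fit (0.0693). Hspa8, the constitutive HSC70, was at 2469, 2824 and 3003 CPM with imeglimin and 1902, 1853 and 2161 CPM with metformin, against 953, 1002 and 1062 CPM in controls. The groups were well apart, at 2.75-fold control with imeglimin and 1.96-fold with metformin (edgeR adjusted p = 1.54e-05 and 0.000243). Hspa2, an HSP70 needed for sperm formation, had log2 fold changes of -0.16 and -0.21 that did not pass the test.

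Scaled by exon length, Hspa8 was also among the most abundant members before treatment. In acute control colon Hsp90ab1 ranked 1 of 34 with 296 CPM per kb, Hspa8 ranked 2 with 234 CPM per kb and Hspd1 ranked 3 with 86.3 CPM per kb. Hspa1b and Hspa1a ranked 21 and 23, with 11.3 and 7.57 CPM per kb, and Hspa1l was last with 0.195 CPM per kb. The 3 HSP70 genes with the widest acute changes thus ranked 21 or lower in control colon.

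Among the nucleotide exchange factors, Hsph1 and Hspa4 rose and Hspa4l did not pass the test. Hsph1, the heat-inducible HSP110 that also disaggregates proteins, was at 187, 143 and 166 CPM with imeglimin and 101, 75.9 and 105 CPM with metformin, against 28.4, 28.3 and 41.2 CPM in controls. Each drug group was at least 75.9 CPM and the controls at most 41.2 CPM, with log2 fold changes of 2.34 ± 0.18 for imeglimin (edgeR adjusted p = 1.9e-05) and 1.53 ± 0.18 for metformin (edgeR adjusted p = 0.000313). Hspa4, a constitutive HSP110, was at 224, 259 and 256 CPM with imeglimin and 239, 249 and 251 CPM with metformin, against 149, 142 and 134 CPM in controls. Its log2 fold change was 0.79 ± 0.09 with either drug (edgeR adjusted p = 0.000141 with imeglimin and 0.000275 with metformin), and the difference between the drugs was 0.00 with a 95% interval of -0.19 to 0.20. For Hspa4l the log2 fold changes were 0.13 with imeglimin and -0.13 with metformin.

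All 7 genes of the HSP90 group rose with both drugs, with medians of 1.09 for imeglimin and 0.76 for metformin. Hsp90aa1, the inducible cytosolic HSP90, was at 421, 446 and 415 CPM with imeglimin and 342, 256 and 353 CPM with metformin, against 139.6, 142 and 153 CPM in controls. The 3 groups did not overlap, and the changes were 2.95-fold (log2 1.56 ± 0.12, edgeR adjusted p = 1.9e-05) and 2.19-fold (log2 1.13 ± 0.12, edgeR adjusted p = 0.000214). Stip1, the scaffold that joins HSP70 to HSP90, was at 152, 173 and 171 CPM with imeglimin and 120, 104 and 113 CPM with metformin, against 51.7, 60.3 and 56.7 CPM in controls. Its log2 fold changes were 1.56 ± 0.10 with imeglimin (edgeR adjusted p = 5.8e-06) and 1.00 ± 0.10 with metformin (edgeR adjusted p = 0.000135). Hsp90ab1, the constitutive HSP90, moved less, by 0.81 ± 0.09 with imeglimin and 0.44 ± 0.09 with metformin (edgeR adjusted p = 0.000151 and 0.00746). The cochaperones Ahsa1 (an activator of the HSP90 ATPase), Fkbp4 (an immunophilin of steroid receptor complexes), Chordc1 and Cacybp had log2 fold changes of 0.93 to 1.12 with imeglimin and 0.62 to 0.84 with metformin. Chordc1, whose window held 3 overlapping arrays of 3 units over both strands, stood at 1.12 and 0.76, close to the group medians.

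Of the 7 J-domain genes, which deliver clients to HSP70, 6 rose with imeglimin and 4 with metformin. Dnaja1, the main type I cytosolic partner of HSC70, was at 261, 270.1 and 290 CPM with imeglimin and 188, 174 and 207 CPM with metformin, against 88.7, 85.1 and 103 CPM in controls. The groups stood in 3 separate bands, with log2 fold changes of 1.57 ± 0.10 for imeglimin (edgeR adjusted p = 8.09e-06) and 1.04 ± 0.10 for metformin (edgeR adjusted p = 0.000145). Dnajb1, the heat-inducible HSP40, was at 131.5, 137.5 and 115 CPM with imeglimin and 91.5, 71.1 and 71.4 CPM with metformin, against 41.6, 44.0 and 58.7 CPM in controls. Dnaja2 and Dnajc7 rose by 0.48 and 0.54 with imeglimin and by 0.40 and 0.40 with metformin. Dnajb2 and Dnajb6 passed with imeglimin (0.62 and 0.40, edgeR adjusted p = 0.0038 and 0.0175) and not with metformin (0.16 and 0.18, adjusted p = 0.409 and 0.285). The direct difference between the drugs did not pass for either (edgeR adjusted p = 0.131 for Dnajb2 and 0.342 for Dnajb6). Dnajb4 did not pass with either drug. Some of these calls were near the threshold and were lost when 1 library was left out. Dnajb6 with imeglimin was lost without Control 2, Control 3, Imeglimin 2 or Imeglimin 3 (adjusted p = 0.0574 to 0.0784). With metformin, Dnaja2 was lost without Control 2, Control 3, Metformin 2 or Metformin 3 (0.0756 to 0.114) and with the replicate block (0.0571), and Dnajc7 without Control 3 (0.0564).

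The 4 mitochondrial genes rose with both drugs, by similar amounts for 3 of them. Hspd1, the mitochondrial chaperonin HSP60, was at 389, 500.3 and 454.5 CPM with imeglimin and 409, 406.5 and 431 CPM with metformin, against 243, 229.6 and 211 CPM in controls. Its log2 fold changes were 0.98 ± 0.11 (edgeR adjusted p = 0.000131) and 0.87 ± 0.11 (edgeR adjusted p = 0.000447), and the drugs differed by 0.11 with an interval of -0.12 to 0.34. Hspe1, the HSP10 lid of that chaperonin, was at 116.5, 161 and 139 CPM with imeglimin and 111.5, 96.0 and 94.15 CPM with metformin, against 53.9, 55.6 and 47.2 CPM in controls. Hspe1 had log2 fold changes of 1.41 ± 0.13 and 0.95 ± 0.13 (edgeR adjusted p = 4.54e-05 and 0.000704). The changes of Hspe1 and Hspd1 were not tested against each other. Hspa9 was at 396, 543 and 496 CPM with imeglimin and 464, 479 and 467 CPM with metformin, against 297.5, 284 and 240.2 CPM in controls (0.81 ± 0.12 and 0.78 ± 0.12, edgeR adjusted p = 0.000843 and 0.0018). Dnaja3, the J-domain partner of mortalin, was at 85.8, 97.7 and 95.5 CPM with imeglimin and 96.2, 104 and 103 CPM with metformin, against 78.2, 67.3 and 59.8 CPM in controls (0.44 ± 0.11 and 0.56 ± 0.11, edgeR adjusted p = 0.00876 and 0.00444).

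The 3 small heat shock genes did not pass the test with either drug. Hspb1, the HSP27 that binds unfolding proteins and actin filaments, was at 43.7, 33.0 and 24.9 CPM with imeglimin and 64.0, 7.74 and 28.4 CPM with metformin, against 28.2, 37.4 and 46.25 CPM in controls. The groups overlapped fully, and the log2 fold changes were -0.14 with a 95% interval of -1.29 to 1.01 for imeglimin and -0.16 with an interval of -1.31 to 0.99 for metformin. The 2 GAANNTTC matches of the Hspb1 window therefore stood beside no detectable change at this depth and spread. Hspb8 was at 34.5, 26.0 and 24.8 CPM with imeglimin and 34.6, 10.1 and 25.2 CPM with metformin, against 25.2, 31.9 and 30.2 CPM in controls. Cryab, the alpha B-crystallin gene of muscle and lens, had log2 fold changes of 0.05 and -0.22 that did not pass. In the Metformin 2 library, where all 3 were lowest, the summed level of 12 smooth muscle markers was 2112 CPM, against 5204 and 8148 CPM in the other metformin libraries. The part of that difference in the small heat shock values was not tested.

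Bag3, the HSP70 cochaperone that sends clients to autophagy and pairs with HSPB8, rose with both drugs. It was at 97.6, 96.7 and 96.1 CPM with imeglimin and 78.9, 68.9 and 69.1 CPM with metformin, against 43.3, 45.6 and 50.45 CPM in controls. The 3 groups were separate, with log2 fold changes of 1.06 ± 0.09 (edgeR adjusted p = 3.71e-05) and 0.64 ± 0.09 (edgeR adjusted p = 0.000932). Hsf1, the master regulator, was at 40.1, 40.2 and 42.7 CPM with imeglimin and 41.0, 40.4 and 36.45 CPM with metformin, against 21.3, 29.45 and 28.0 CPM in controls, a change of 0.64 ± 0.12 and 0.58 ± 0.12 (edgeR adjusted p = 0.00228 and 0.00703). Hsf2, a developmental and proteotoxic-stress factor that can form trimers with HSF1, did not pass (-0.06 and -0.38). Hspa14, the HSP70 of the ribosome-associated complex, rose by 0.65 and 0.58 and Hspa13 did not pass. Of the 12 members with a GAANNTTC match in their window, 10 were higher with imeglimin and 9 with metformin. Of the 15 with a window and no GAANNTTC match, among them Dnajb4 with a TTCNNGAA match, 11 and 10 were higher. Among all members 76.5% and 70.6% were higher.

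Markers of other cell types were counted in the same way in 6 h colon. With imeglimin, 0 of 12 smooth muscle markers were called, 2 of 8 fibroblast markers were lower and 2 of 8 epithelial markers were higher. Goblet cell markers were higher in 3 of 8 cases (median 0.32), endothelial markers lower in 2 of 8, macrophage markers lower in 1 of 8, and of 8 T cell markers 1 was higher and 1 lower. With metformin, 0 of 12 smooth muscle and 0 of 8 fibroblast markers were called, while 3 of 8 epithelial and 2 of 8 goblet cell markers (median 0.33) were higher. Markers of enteric neurons and glia had a median of -0.46 with metformin, with 0 of 10 called. The summed epithelial level was 9415 to 11030 CPM with imeglimin and 10760 to 11860 CPM with metformin, against 9283 to 10420 CPM in controls. The part of these markers in the members' changes was not tested.

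Between the drugs the direction was lopsided. Imeglimin minus metformin was positive for 32 of the 34 members at 6 h, with a median of 0.30 against 0.02 for all genes, and 2 members were called higher with imeglimin (0.476% of all genes were called higher and 0.169% lower). Those 2 were Stip1, by 0.56 ± 0.10 (edgeR adjusted p = 0.0344), and Dnaja1, by 0.53 ± 0.10 (edgeR adjusted p = 0.0488). Both were lost with the replicate block (adjusted p = 0.0971 for Stip1 and 0.0701 for Dnaja1) and with only the imeglimin and metformin libraries in the fit (0.0722 and 0.0841). Dnaja1 was lost without any 1 of those 6 libraries (0.0674 to 0.211), and Stip1 without any but Metformin 1 (0.0596 to 0.169). At an unadjusted p under 0.05, 17 of 34 members differed, each higher with imeglimin, and with DESeq2 13 were called. The shares of all genes above are edgeR calls at the adjusted threshold and do not compare with these 2 counts. Next in order were Dnajb1 (0.71 ± 0.15, edgeR adjusted p = 0.058), Hsph1 (0.81 ± 0.17, 0.0628), Bag3 (0.42 ± 0.09, 0.0658) and Hspa8 (0.49 ± 0.11, 0.0684). Hspa1a had the largest difference of all members, at 1.49 with a 95% interval of 0.60 to 2.39, and its wide spread left the adjusted p at 0.131. For 26 of the 34 members the interval lay within 1 log2 unit of 0 on either side, among them Hspa4 (-0.19 to 0.20), Hspa9 (-0.25 to 0.30) and Hspd1 (-0.12 to 0.34). These comparisons share the libraries of each drug with the comparisons against control.

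Other folding genes were counted beside the 18.1% and 11.3% of all genes called higher with imeglimin and metformin at 6 h. The 8 subunits of TRiC, the cytosolic chaperonin for actin and tubulin, rose in 7 cases with imeglimin and in 8 with metformin, such as Cct3 (0.83 and 0.78, edgeR adjusted p = 0.000137 and 0.000376), Cct7 (0.61 with imeglimin, edgeR adjusted p = 0.00101) and Tcp1 (0.51 with metformin, edgeR adjusted p = 0.00329). Of 26 further cochaperones, 13 rose and 1 fell with imeglimin, and 9 rose and 0 fell with metformin. These were led by the HSP90 cochaperones Ptges3 (1.14 and 0.86, edgeR adjusted p = 3.15e-05 and 0.000262) and Ppid (0.85 and 0.77, edgeR adjusted p = 9.59e-05 and 0.000313). Among 12 further mitochondrial chaperones and proteases, 4 and 3 rose, with Grpel1, the exchange factor of mortalin, at 0.65 and 0.64 (edgeR adjusted p = 0.000298 and 0.000566), Clpp at 0.54 with imeglimin (adjusted p = 0.00531) and Afg3l2 at 0.48 with metformin (adjusted p = 0.00275). Of 11 chaperones of the endoplasmic reticulum, 8 and 7 rose, led by Creld2 (1.32 and 0.97, edgeR adjusted p = 2.32e-05 and 0.000232) and Hyou1 (1.01 and 0.84, edgeR adjusted p = 5.95e-05 and 0.000287). In the ATF4 program of the integrated stress response, 10 of 10 genes rose with imeglimin and 8 of 10 with metformin, with Chac1 at 5.48 and 5.06 and Mthfd2 at 3.13 and 2.94 (edgeR adjusted p = 2.55e-06, 9.18e-06, 1.9e-05 and 6.23e-05). Medians were 0.48 and 0.51 for TRiC, 0.35 and 0.24 for the cochaperones, 0.16 and 0.22 for the mitochondrial list, 0.58 and 0.46 for the endoplasmic reticulum list and 1.96 and 1.83 for the ATF4 program, with imeglimin and metformin. The 4 mitochondrial members, with medians of 0.89 and 0.82, thus stood above the median of the wider mitochondrial list.

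After 4 weeks in drinking water, colon showed a smaller set of changes. With imeglimin 12 members were higher and 2 lower, while 7.97% of all genes were called higher and 5.07% lower. With metformin 5 were higher and 1 lower, while 11.6% of all genes were higher and 8.04% lower (19.7% in either direction, against 13% with imeglimin), beside 14.7% of the members higher. DESeq2 called 14 members with metformin, 11 higher and 3 lower, and edgeR called 9 without Metformin 3. For these 2 counts no share of all genes under the same rule is given. Median log2 fold changes were 0.23 for imeglimin and 0.11 for metformin, against -0.02 and -0.05 for all genes. Without Control 3, the library with acinar markers, 5 members were called with imeglimin and 3 with metformin, all higher, while 3.14% and 7.13% of all genes were called higher. The members' median log2 fold changes in that fit were 0.26 and 0.16.

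**Figure D2:**
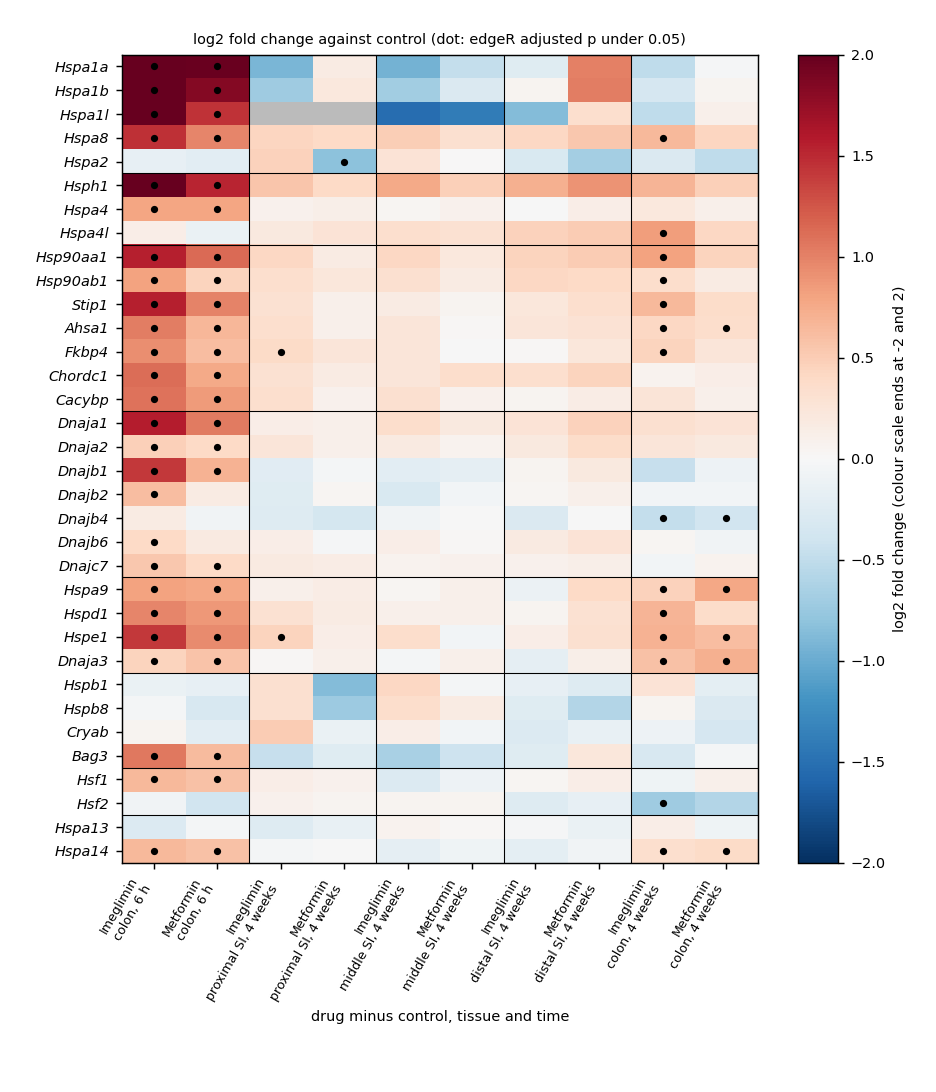
Log2 fold change of drug minus control for each member (rows, by role) in the 5 tissue sets (columns, imeglimin left of metformin), with a dot where the edgeR adjusted p was under 0.05, grey where the gene was not tested and the colour scale ended at -2 and 2. The 6 h colon columns hold 26 and 24 dots and the 4-week colon columns 14 and 6, which lie mostly in the HSP90 and mitochondrial rows.

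Among the 4 mitochondrial genes, 4 were called higher with imeglimin (median 0.63) and 3 with metformin (median 0.66) in 4-week colon. Hspa9 was at 347, 318.5 and 423 CPM with imeglimin and 394, 533 and 423 CPM with metformin, against 275, 254 and 261 CPM in controls. Every treated library exceeded every control, with log2 fold changes of 0.46 ± 0.13 (edgeR adjusted p = 0.043) and 0.77 ± 0.13 (edgeR adjusted p = 0.00328). Dnaja3 was at 80.9, 73.7 and 84.95 CPM with imeglimin and 79.0, 99.4 and 82.7 CPM with metformin, against 52.15, 52.05 and 55.2 CPM in controls. Its controls were tightly grouped and both drugs lay above them, by 0.59 ± 0.09 (edgeR adjusted p = 0.00601) and 0.71 ± 0.10 (edgeR adjusted p = 0.00106). Hspe1 was at 93.3, 83.5 and 89.6 CPM with imeglimin and 81.0, 103 and 69.1 CPM with metformin, against 46.4, 63.6 and 55.4 CPM in controls (0.69 ± 0.15 and 0.61 ± 0.15, edgeR adjusted p = 0.0169 and 0.0182). Hspd1 was at 381, 374 and 406 CPM with imeglimin and 304, 381 and 255 CPM with metformin, against 224, 254 and 251 CPM in controls. The imeglimin change of 0.67 ± 0.13 passed (edgeR adjusted p = 0.0106), and the metformin change of 0.37 ± 0.13 did not (adjusted p = 0.07). Without Control 3 the calls were 2 of 4 with imeglimin, Hspd1 and Dnaja3 (edgeR adjusted p = 0.0385 and 0.0252), and 2 of 4 with metformin, Hspa9 and Dnaja3 (0.0166 and 0.00565).

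**Figure D3:**
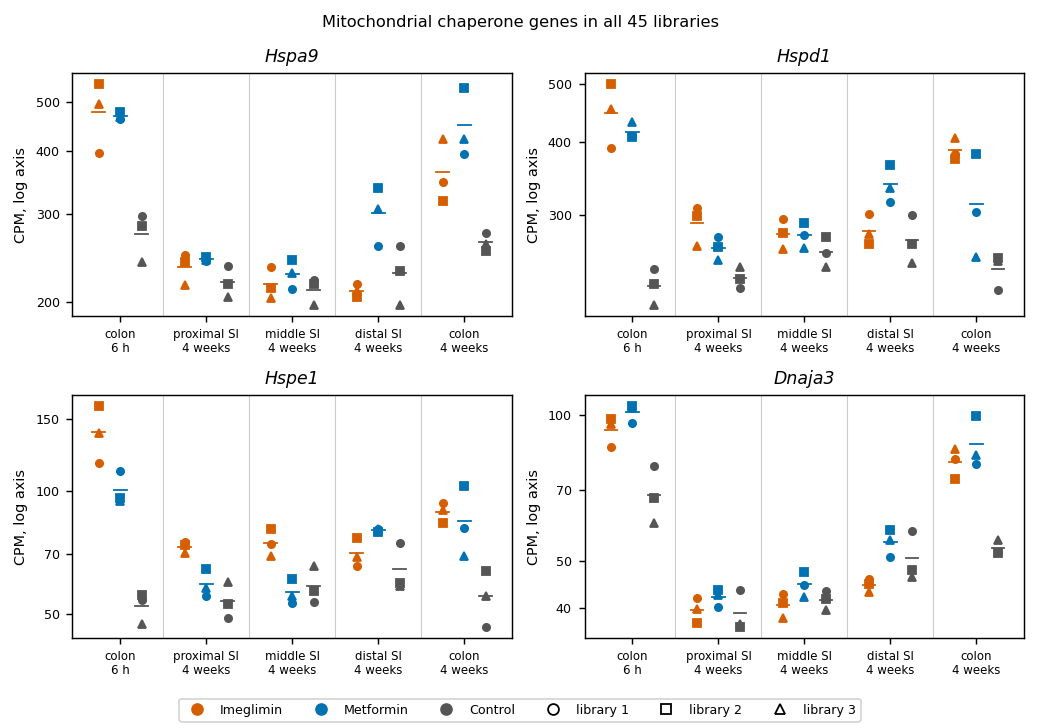
Levels of Hspa9, Hspd1, Hspe1 and Dnaja3 in all 45 libraries, in CPM on a log axis, by tissue set, with drug as colour, library number as symbol and bars at group means. In 4-week colon the Dnaja3 controls lie at 52.05 to 55.2 CPM, below the 73.7 to 99.4 CPM of the 6 treated libraries.

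In the HSP90 group, 5 of 7 genes rose with imeglimin and 1 of 7, Ahsa1, with metformin, and without Control 3 these counts were 1, Stip1 (edgeR adjusted p = 0.0449), and 0. Hsp90aa1 was at 509, 535 and 469.8 CPM with imeglimin and 382, 492 and 303 CPM with metformin, against 209, 328 and 329 CPM in controls. The imeglimin libraries were above all controls (0.81 ± 0.20, edgeR adjusted p = 0.0272), while 1 metformin library was within the control range (0.44 ± 0.20, adjusted p = 0.14). Ahsa1 was at 87.4, 90 and 88.1 CPM with imeglimin and 81.55, 97.8 and 75.1 CPM with metformin, against 59.4, 70.8 and 69.2 CPM in controls (0.41 ± 0.10 and 0.35 ± 0.10, edgeR adjusted p = 0.0299 and 0.0395). With imeglimin Stip1 rose by 0.65 ± 0.13 (edgeR adjusted p = 0.0143), Fkbp4 by 0.44 ± 0.12 (adjusted p = 0.0441) and Hsp90ab1 by 0.34 ± 0.10 (adjusted p = 0.0454). Chordc1 and Cacybp, which had risen at 6 h, had values of 0.06 and 0.26 with imeglimin and 0.13 and 0.10 with metformin that did not pass.

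Among HSP70 and HSP110 genes, Hspa4l and Hspa8 passed with imeglimin, while Hspa1a, Hspa1b and Hsph1 did not pass with either drug. Hspa4l, the HSP110 that had not passed at 6 h, was at 97.1, 98.1 and 91.95 CPM with imeglimin and 67.8, 81.1 and 63.8 CPM with metformin, against 43.0, 55.1 and 62.1 CPM in controls. All 6 treated libraries were above the controls, by 0.84 ± 0.13 with imeglimin (edgeR adjusted p = 0.00544) and 0.41 ± 0.13 with metformin (adjusted p = 0.0542). Hspa8 was at 2504, 2396 and 2511 CPM with imeglimin and 2024, 2598 and 1714 CPM with metformin, against 1368, 1688 and 1661 CPM in controls (0.65 ± 0.14 and 0.43 ± 0.14, edgeR adjusted p = 0.0156 and 0.0547). Hspa1a was at 75.2, 53.0 and 51.5 CPM with imeglimin and 106, 104 and 40.1 CPM with metformin, against 31.8, 137.5 and 85.6 CPM in controls. Its control libraries spanned a wider range than the treated ones, and the log2 fold changes of -0.50 ± 0.48 and -0.02 ± 0.48 did not pass (edgeR adjusted p = 0.538 and 0.981). Hspa1b, at 143, 96.15 and 89.8 CPM with imeglimin and 175, 183 and 69.45 CPM with metformin, against 51.4, 215 and 146 CPM in controls, overlapped in the same way. The 95% intervals of the Hspa1a change were -1.57 to 0.56 for imeglimin and -1.08 to 1.04 for metformin, so smaller changes were not detectable. Hsph1 had values of 0.69 ± 0.42 and 0.47 ± 0.42 that did not pass.

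Dnajb4 and Hsf2 were called lower with imeglimin after 4 weeks, and Dnajb4 also with metformin. These were 5.88% and 2.94% of the members, beside 5.07% and 8.04% of all genes called lower with imeglimin and metformin. Without Control 3, 0 members were called lower with either drug. Dnajb4, a type B J-domain protein, was at 23.5, 23.1 and 21.7 CPM with imeglimin and 28.5, 22.2 and 21.9 CPM with metformin, against 29, 34.55 and 31.7 CPM in controls. All treated libraries were below all controls, by -0.48 ± 0.11 (edgeR adjusted p = 0.0239) and -0.39 ± 0.11 (edgeR adjusted p = 0.0372). Hsf2 was at 6.88, 7.24 and 7.68 CPM with imeglimin and 10.3, 7.03 and 6.52 CPM with metformin, against 9.67, 12.6 and 13.6 CPM in controls (-0.72 ± 0.19 and -0.59 ± 0.19, edgeR adjusted p = 0.0376 and 0.0566). Hspa14 rose with both drugs, at 36.8, 32.5 and 35.8 CPM with imeglimin and 33.51, 39.2 and 35.7 CPM with metformin, against 25.9, 29.7 and 27.4 CPM in controls (0.34 ± 0.09 and 0.39 ± 0.09, edgeR adjusted p = 0.0316 and 0.0136).

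The small heat shock genes, Bag3 and Hsf1 did not pass in 4-week colon. Hspb1 was at 33.3, 40.5 and 28.1 CPM with imeglimin and 26.8, 18.7 and 28.1 CPM with metformin, against 26.7, 27.3 and 30.6 CPM in controls (0.27 and -0.20, edgeR adjusted p = 0.324 and 0.424). Bag3 was at 57.6, 54.9 and 63.6 CPM with imeglimin and 83.2, 69.4 and 60.3 CPM with metformin, against 59.5, 83.75 and 76.4 CPM in controls (-0.32 and -0.05, edgeR adjusted p = 0.174 and 0.85). Hsf1, at 19.99 to 22.2 CPM with imeglimin and 20.01 to 26.4 CPM with metformin, against 22.1 to 22.6 CPM in controls, differed by -0.09 and 0.10 (edgeR adjusted p = 0.649 and 0.537).

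The 4-week colon calls were less stable than those at 6 h. With imeglimin the count of called members was 14 in the fit of all libraries and 7, 9 and 5 without Control 1, 2 and 3, and 5, 8 and 7 without Imeglimin 1, 2 and 3. Hspa4l, Hspd1, Dnaja3 and Stip1 passed in every fit run. Hspa8 was lost without Control 1 (adjusted p = 0.0599), and the other 9 called members were lost without at least 1 library. Hspa9 was lost without any 1 library other than Imeglimin 2 (0.083 to 0.134) and with the replicate block (0.0656), and the block also ended the calls of Hspa14 (0.0537), Hsp90ab1 (0.0519) and Hsf2 (0.0629). With metformin the count was 6, and 4, 3 and 2 without Control 2, Control 3 and Metformin 2, and 9 without Metformin 3. Hspa9 and Dnaja3 passed in every metformin fit, whereas Hspa14 and Hspe1 were lost without Control 1 (0.0539 and 0.0627), Control 3 (0.054 and 0.0552) or Metformin 2 (0.0528 and 0.0564). Dnajb4 and Ahsa1 were each lost in several fits, Dnajb4 also with the block (0.0508).

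Other tissue markers differed between these groups too. In 4-week colon the smooth muscle sum was 4777, 6571 and 5882 CPM with imeglimin and 4954, 4423 and 4721 CPM with metformin, against 6348, 6576 and 6360 CPM in controls. With metformin 8 of 12 smooth muscle and 6 of 8 fibroblast markers were lower and 4 of 8 epithelial markers were higher. With imeglimin these counts were 0 of 12 lower, 3 of 8 lower and 1 of 8 higher. Without Control 3 they were 5, 5 and 2 with metformin and 0, 3 and 0 with imeglimin. Their part in the members' changes was not tested. Imeglimin minus metformin gave 0 members called with edgeR, 6 at an unadjusted p under 0.05 and 1 with DESeq2, while 0.611% of all genes were called in either direction. The largest of those 6 were Hspb1 (0.47, interval 0.10 to 0.84) and Hspa4l (0.43, interval 0.14 to 0.73). In the same colon libraries, where 7.97% and 11.6% of all genes were higher, 2 and 0 of 8 TRiC subunits rose, 4 and 4 of 26 cochaperones rose (1 fell with metformin), 3 and 7 of 12 further mitochondrial genes rose (1 fell with metformin), and 10 and 3 of 11 endoplasmic reticulum chaperones and 5 and 7 of 10 ATF4 program genes rose, with imeglimin and metformin. Without Control 3 the counts higher were 0 and 0 for TRiC, 2 and 3 for the cochaperones, 1 and 4 for the mitochondrial list, 6 and 2 for the endoplasmic reticulum list and 3 and 6 for the ATF4 program, of which 1 further gene was lower with each drug.

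The 6 h and 4-week effects in colon were compared in 1 fit of 18 libraries, in which each experiment had its own controls. The 2 experiments differ in route, dose and duration together and were counted in separate tables, so their contributions cannot be told apart. Control levels differed too, on the scale of each tissue set. In 6 h and 4-week controls Hspa1a averaged 22.45 and 84.97 CPM, Dnajb1 48.09 and 84.68 CPM and Bag3 46.44 and 73.23 CPM. Other members were lower in the 4-week controls, such as Dnaja3 (68.44 and 53.13 CPM). The part of control levels in the differences below was not tested. Of the members higher at 6 h with imeglimin, 11 of 26 (42.3%) were also higher at 4 weeks, which was 11 of the 12 (91.7%) called there, all but Hspa4l. With metformin 5 of 24 (20.8%) were, which was 5 of 5 (100%). Over all genes tested in both sets, 49.5% of those higher at 4 weeks with imeglimin were higher at 6 h, and 35.6% with metformin. Since 76.5% and 70.6% of the members were higher at 6 h, nothing about the members is read from these shares. The effect of imeglimin was larger at 6 h for 20 members and smaller for 1, while 7.56% of all genes were called larger and 8.72% smaller. The 3 with the smallest p were Bag3, by 1.35 ± 0.17 (edgeR adjusted p = 0.000151), Dnajb1, by 1.85 ± 0.25 (edgeR adjusted p = 0.000234), and Dnajc7, by 0.57 ± 0.09 (edgeR adjusted p = 0.000768). Hspa1a had the widest gap, 3.94 ± 0.73 (edgeR adjusted p = 0.00197). The single member with a smaller effect at 6 h was Hspa4l, by -0.74 ± 0.20 (edgeR adjusted p = 0.0211). With metformin 4 members had a larger effect at 6 h and 0 a smaller one (2.32% of all genes larger and 3.9% smaller, 6.22% in all), and these were Hspa4 (0.66 ± 0.13, edgeR adjusted p = 0.0085), Bag3 (0.65 ± 0.17, 0.0322), Cacybp (0.71 ± 0.19, 0.037) and Stip1 (0.60 ± 0.17, 0.0432).

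Of the 4 mitochondrial genes, Hspe1 had a larger effect at 6 h with imeglimin (0.69 ± 0.20, edgeR adjusted p = 0.0285), a call lost without the 4-week Control 3 (0.0609), and the other differences did not pass. For Hspa9 the 6 h and 4-week effects differed by 0.32 with imeglimin (95% interval -0.08 to 0.71) and by -0.02 with metformin (-0.42 to 0.37), and for Dnaja3 by -0.17 and -0.18 (edgeR adjusted p = 0.463 and 0.535). Hspd1 differed by 0.28 with imeglimin (edgeR adjusted p = 0.289) and 0.47 with metformin (adjusted p = 0.112). These values do not show equal effects. The counts moved with the libraries left out: 15, 4 and 6 members were called with imeglimin without libraries 1, 2 and 3 of every group, and 1, 1 and 0 with metformin. Without the 4-week Control 3 alone, a fit added after the data were seen, 14 members were called with imeglimin, 13 larger and 1 smaller at 6 h, and 1, Hspa4, with metformin. Hspa1a, Dnajb1 and Bag3 passed in every imeglimin fit, and with the replicate block the metformin count was 1, Hspa4.

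**Figure D4:**
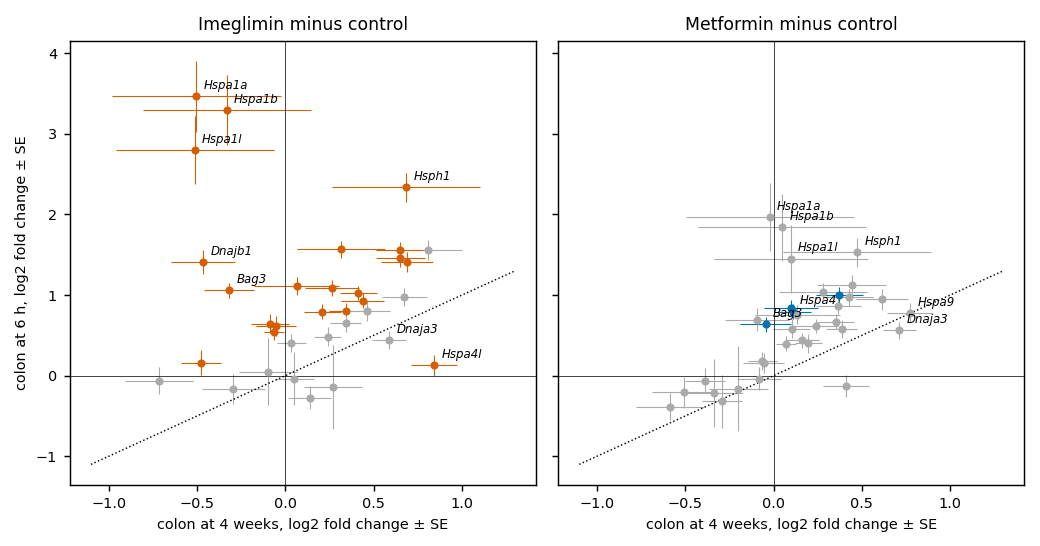
Log2 fold change of drug minus control in colon at 6 h (vertical axis, ± SE) against that in colon at 4 weeks (horizontal axis, ± SE) for the 34 members, imeglimin left and metformin right, with the dotted line at equal effects. Coloured points are members whose 2 effects differed at an edgeR adjusted p under 0.05, 21 for imeglimin and 4 for metformin, while Dnaja3 lies near the line in both panels.

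In small intestine after 4 weeks, edgeR called members in the proximal segment alone. In the proximal segment, where 33 members were tested because Hspa1l was too low, imeglimin raised 2 members, metformin lowered 1, and 0 moved the other way with either drug. Over all genes 0.393% were called higher and 0.763% lower with imeglimin, and 1.65% higher and 2.46% lower with metformin (1.16% and 4.11% in either direction). At an unadjusted p under 0.05, 15 of 33 members differed with imeglimin and 7 with metformin, and DESeq2 called 8 and 5. The edgeR shares of all genes do not compare with these counts. Hspe1 was at 74.9, 73.4 and 70.6 CPM with imeglimin and 55.3, 64.4 and 57.7 CPM with metformin, against 48.8, 52.75 and 59.6 CPM in controls, a change of 0.44 ± 0.08 with imeglimin (edgeR adjusted p = 0.0419). Fkbp4 was at 215, 226 and 208 CPM with imeglimin and 205, 198 and 186 CPM with metformin, against 156, 157 and 185 CPM in controls, and the imeglimin libraries lay above the controls by 0.38 ± 0.08 (edgeR adjusted p = 0.0452). Both calls were lost without each of Control 1, Control 2 and Imeglimin 1, 2 and 3 (adjusted p = 0.076 to 0.165) and with the block (0.0653 and 0.0866), while 5 members were called without Control 3. Hspa2 was at 14.8, 10.4 and 14.4 CPM with imeglimin and 4.61, 5.56 and 6.01 CPM with metformin, against 9.83, 8.0 and 10.9 CPM in controls. It was lower with metformin by -0.83 ± 0.17 (edgeR adjusted p = 0.0267), a call lost without Control 1, Control 3 or any 1 of the metformin libraries (0.0623 to 0.0988).

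In proximal small intestine 3 members separated the drugs, while 0.659% of all genes were called higher with imeglimin. Hspa2 was higher with imeglimin than with metformin by 1.29 ± 0.17 (edgeR adjusted p = 0.0115), Hspb8 by 1.06 ± 0.21 (adjusted p = 0.0394) and Hspb1 by 1.20 ± 0.25 (adjusted p = 0.0456). Hspb8 was at 12.4, 9.73 and 15.6 CPM with imeglimin, against 4.24, 6.75 and 7.15 CPM with metformin, and Hspb1 at 6.16, 4.32 and 9.18 CPM with imeglimin, against 2.39, 3.21 and 2.97 CPM with metformin. The groups did not overlap for any of the 3. The summed smooth muscle markers were likewise 2010, 1723 and 1995 CPM with imeglimin, against 934, 1270 and 1000 CPM with metformin, with 12 of 12 called higher, and 11 of 12 were lower with metformin than with the control libraries at 1869, 1529 and 1779 CPM. The part of muscle content in these 3 members was not tested. Hspb1 and Hspb8 were lost with the block (adjusted p = 0.0722 and 0.0505) and without any 1 library but Imeglimin 2 (0.0687 to 0.185), and Hspa2 without Metformin 1 or Metformin 3 (0.0549 and 0.0613).

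In middle and distal small intestine 0 members were called with edgeR in any comparison. Counts at an unadjusted p and by DESeq2 in these segments have no share of all genes under the same rule beside them. In the middle segment 12 members had an unadjusted p under 0.05 for imeglimin and 2 for metformin, and DESeq2 called 4 and 0. Of all genes edgeR called 0.0279% with imeglimin (0.0167% higher and 0.0111% lower) and 0.34% with metformin (0.29% higher and 0.0502% lower). In the distal segment these numbers were 9 and 15 with an unadjusted p under 0.05, and 3 and 4 by DESeq2. Of all genes edgeR called 0.0219% with imeglimin, all higher, and 0.625% with metformin (0.592% higher and 0.0329% lower). Between the drugs, 4 members in the middle and 7 in the distal segment had an unadjusted p under 0.05, and DESeq2 called 1 and 0 (0% and 0.0494% of all genes with edgeR). Hspa8 lay above the controls in both segments, at 1690, 1741 and 1723 CPM with imeglimin and 1525, 1641 and 1414 CPM with metformin, against 1043, 1242 and 1384 CPM in controls of the middle segment. In the distal segment it was at 1736, 1681 and 1710 CPM with imeglimin and 1778, 1841 and 1936 CPM with metformin, against 1209, 1264 and 1362 CPM in controls. Each treated library exceeded each control in both segments, yet the adjusted p missed the threshold. Of the other lists, St13 and Ppp5c among the 26 cochaperones were higher in the proximal segment with each drug and 1 ATF4 program gene was lower with each drug, while in the distal segment 1 cochaperone and 4 ATF4 program genes were higher with metformin. All other counts of these 5 lists against control were 0 in small intestine.

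Hspa1a in small intestine illustrates the spread of the inducible genes. In the distal segment it was at 44.6, 35.0 and 32.7 CPM with imeglimin and 123, 79.1 and 64.2 CPM with metformin, against 13.7, 67.3 and 52.2 CPM in controls. In the proximal segment it was at 17.1, 13.9 and 8.88 CPM with imeglimin and 42.9, 25.9 and 16.3 CPM with metformin, against 7.22, 19.3 and 49.7 CPM in controls. Among controls the highest library was 6.88-fold the lowest in the proximal segment. Over all 15 groups the pooled standard deviation within groups, on the log2 scale, was 0.81 for Hspa1a, 0.80 for Hspa1b, 0.74 for Hspa1l, 0.51 for Hsph1 and 0.49 for Hspb1, and lowest for Dnajc7 at 0.08.

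**Figure D5:**
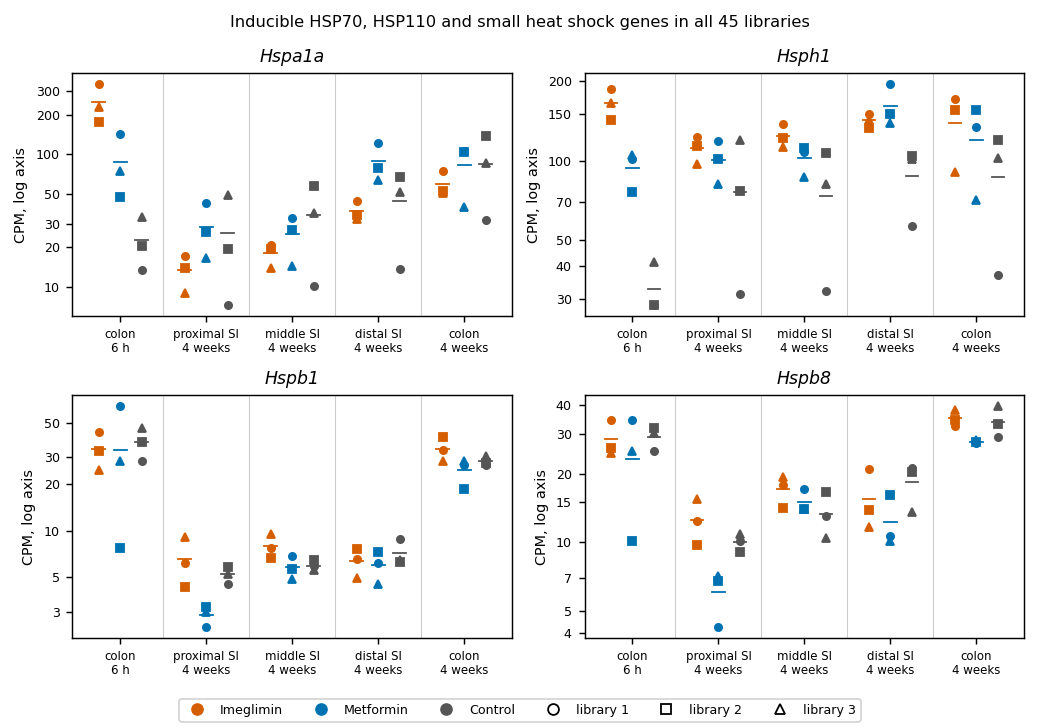
Levels of Hspa1a, Hsph1, Hspb1 and Hspb8 in all 45 libraries, in CPM on a log axis, by tissue set, with drug as colour, library number as symbol and bars at group means. Hspa1a separates the drugs from control at 6 h and overlaps in the 4-week sets, where Control 1 was the lowest control in each set, and Hspb1 lies higher in colon than in small intestine apart from Metformin 2 at 6 h (7.74 CPM).

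Whether the 4-week drug effect differed among the 4 segments was tested in 1 fit of 36 libraries. The labels do not say whether the segments came from the same animals, and this fit treats the libraries as independent. With imeglimin 3 members passed (2.96% of all genes did), namely Dnaja3 (edgeR adjusted p = 0.00255), Hspa14 (0.01) and Hspd1 (0.0335). Dnaja3 had imeglimin log2 fold changes of 0.02, -0.02 and -0.16 in proximal, middle and distal small intestine and 0.60 in colon. Hspd1 had 0.31, 0.11 and 0.07 in the 3 segments of small intestine and 0.68 in colon. With metformin 3 members passed as well (4.03% of all genes did), namely Dnaja3 (0.0033), Hspa14 (0.0168) and Hspa9 (0.0274). For these, values in proximal, middle and distal small intestine and in colon were 0.13, 0.11, 0.13 and 0.72 for Dnaja3, 0.02, -0.08, -0.05 and 0.39 for Hspa14, and 0.17, 0.11, 0.41 and 0.78 for Hspa9. In all 6 cases the largest value was that of colon. Without the 4-week colon Control 3 alone, 2 members passed with imeglimin, Dnaja3 and Hspa14, and 1 with metformin, Dnaja3. These counts were 0 with either drug once libraries 1, 2 or 3 were left out of every group, and with the block 2 members passed for imeglimin and 1 for metformin. At an unadjusted p under 0.05, 9 members passed with each drug.

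Basal levels along the gut were compared in the 4-week controls. CPM values in this comparison are scaled with the TMM factors of the fit of 36 libraries, so that segments share 1 scale, and differ from the CPM of each tissue set given above. Between colon and the mean of the 3 small intestine segments, 15 of 34 members differed (58.1% of all genes did). Of these, 8 were higher and 7 lower in colon, while 29.6% of all genes were higher and 28.5% lower. The members were thus not called more often than genes in general. Without Control 3 of colon 14 differed, and the call lost was Bag3 (edgeR adjusted p = 0.118). The small heat shock genes were the clearest group on the colon side. Hspb1 averaged 23.1 ± 1.68 CPM in colon, against 6.10 ± 0.79, 6.47 ± 0.48 and 6.83 ± 1.35 CPM in proximal, middle and distal small intestine (SD, n = 3 each), a log2 difference of 1.84 ± 0.17 (edgeR adjusted p = 2.35e-10). Cryab (1.34), Hspb8 (0.95), Hsf2 (1.34), Hsf1 (0.46), Hsp90ab1 (0.39), Dnajb4 (0.38) and Bag3 (0.32) were also higher in colon. Bag3 lost its call with the block (adjusted p = 0.3025) and without libraries 2 or 3 of each group (0.189 and 0.107). On the scale of each tissue set, smooth muscle marker sums were also higher in control colon, at 6348 to 6576 CPM against 1529 to 3297 CPM in control small intestine, and their part in the small heat shock difference was not tested. On the other side Dnaja1 averaged 160.1 ± 45.7 CPM in colon, against 358 ± 70.25, 306 ± 70.4 and 265 ± 49.0 CPM in the proximal, middle and distal segments, a log2 difference of -0.94 ± 0.18 (edgeR adjusted p = 4.71e-05). Hspa13 (-0.88), Hspa2 (-0.72), Dnajc7 (-0.51), Hspe1 (-0.47), Hspd1 (-0.45) and Hspa14 (-0.23) were lower in colon as well, of which Hspa2 and Hspa14 were lost without library 1 of each group (adjusted p = 0.0947 and 0.248). Hspa8 and Hspa9 differed by -0.06 and -0.12 between colon and small intestine and did not pass.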

How the data were processed

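Bulk RNA-seq of 45 libraries (RNeasy Mini RNA, TruSeq Stranded mRNA kit, per the labels' protocols) was analysed. The authors deposited raw gene counts in 5 tables of 9 libraries and 45777 symbols. Builds mm10 and GRCm39 and the tools Trimmomatic, HISAT2, StringTie, FastQC and Cell Ranger are listed, per the submitters' processing notes. Versions, roles and the use of strand in counting are not given in the sources used here. Columns not used numbered 0, and 26 symbols of the 4-week colon table had been turned into dates and were not used as genes.

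Groups came from the labels. Each table was fitted with edgeR 4.0.16 (quasi-likelihood test, TMM, filterByExpr, limma 3.58.1) in R 4.3.3 on all 9 libraries, with Benjamini-Hochberg adjustment over all genes tested at 0.05. SE is the log2 fold change over the square root of F, and intervals are 95%. Joint fits covered 18 colon libraries (19369 genes) and 36 libraries of the 4-week experiment (20053 genes). Alternatives were RLE scaling, no filter, a replicate block, DESeq2 1.42.0, only the 2 groups compared, and leaving out libraries, of which 4-week colon Control 3 alone in the joint fits was added after the data were seen. Replicate numbers, which equal the batch tag in the labels, showed no clear pairing of samples within a tissue set. The mean correlation of same-numbered deviations was -0.132 to 0.0687 over the 5 tables. Across the 4-week segments it was 0.0684 (22 of 54 pairs over 0.1), against -0.0333 for unlike numbers of 1 treatment (18 of 108 pairs over 0.1). Deviations within a group of 3 cancel out, so these 2 means are tied and are not independent. Segment libraries were treated as independent, since the labels do not say whether they share animals. Scripts were tested on simulated data. Sequences were read with Python 3.11.15, pandas 2.3.3 and Biopython 1.88, and figures drawn with matplotlib 3.10.9.

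The members and lists were chosen with earlier results of these data known. All 34 members were accounted for. Per-library values were given for up to 6 called members of largest change per drug-control comparison, up to 3 of smallest p per drug-drug comparison and interaction, and Hspa1a, Hspa1b, Hspa8, Hsp90aa1, Hspd1, Hspb1, Bag3 and Hsf1 in colon. Of the 5 other lists the 2 genes of smallest p per acute comparison were named. Some further members were given for completeness of their role. The single-cell sample was not analysed here.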

Additional observations from a re-analysis of the deposited data

Results flagged for a closer look

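The effect of a drug in colon differed between the 6 h and the 4-week experiment for the members below, by the interaction term of the joint edgeR fit at an adjusted p under 0.05. Route, dose and duration differ together and cannot be told apart. With imeglimin, the effect at 6 h minus that at 4 weeks, on the log2 scale, was 3.945 for Hspa1a, 3.605 for Hspa1b and 3.289 for Hspa1l. It was 1.851 for Dnajb1, 1.631 for Hsph1, 1.353 for Bag3, 1.229 for Dnaja1 and 1.028 for Chordc1. It was 0.8821 for Stip1, 0.805 for Cacybp, 0.7817 for Hspa8, 0.7057 for Hsf1, 0.6936 for Hspe1 and 0.6438 for Dnajb2. It was 0.6187 for Dnajb4, 0.5891 for Ahsa1, 0.5729 for Dnajc7, 0.5595 for Hspa4, 0.4666 for Fkbp4 and 0.4366 for Hsp90ab1, and -0.7391 for Hspa4l. With metformin it was 0.7148 for Cacybp, 0.6553 for Hspa4, 0.6546 for Bag3 and 0.5962 for Stip1.

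The 4-week effect differed among the 4 segments for 3 members with each drug. The edgeR adjusted p of that test was 0.002547 for Dnaja3, 0.01001 for Hspa14 and 0.03353 for Hspd1 with imeglimin, and 0.003299 for Dnaja3, 0.01675 for Hspa14 and 0.02738 for Hspa9 with metformin.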

How the results depend on the processing

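The number of members called held within 1.5 times at 6 h against control, at 25 to 26 of 26 with imeglimin and 22 to 24 of 24 with metformin, while the other counts moved. Leaving out 1 library in turn gave 25 to 26 members for imeglimin and 22 to 23 for metformin at 6 h, 0 to 4 (against 2) for imeglimin minus metformin at 6 h, 5 to 9 (against 14) for imeglimin and 2 to 9 (against 6) for metformin in 4-week colon. In proximal small intestine it gave 0 to 5 (against 2) for imeglimin, 0 to 2 (against 1) for metformin and 0 to 3 (against 3) between the drugs, and 0 to 1 (against 0) for imeglimin in the middle segment. In the joint fits, the libraries of 1 number were left out of every group at once, or 4-week colon Control 3 alone. For the 6 h minus 4-week effect these fits gave 4 to 15 members (against 21) for imeglimin and 0 to 1 (against 4) for metformin. For the segment test they gave 0 to 2 (against 3) for imeglimin and 0 to 1 (against 3) for metformin. The fit without Control 3 alone was added after the data were seen. With the replicate block the count was 0 between the drugs at 6 h, 0 for imeglimin and 1 between the drugs in proximal small intestine, and 1 with metformin both for the 6 h minus 4-week effect and for the segment test. The block gave 10 members (against 14) for imeglimin and 5 (against 6) for metformin in 4-week colon. DESeq2 called 13 between the drugs at 6 h, 5 for metformin and 8 for imeglimin in proximal, 4 for imeglimin and 1 between the drugs in middle, 4 for metformin and 3 for imeglimin in distal small intestine, and 14 for metformin and 1 between the drugs in 4-week colon. Fitting only the 2 groups compared gave 0 between the drugs at 6 h, and 2 for metformin and 0 for imeglimin in proximal small intestine, and without a filter on low counts 1 member differed between the drugs at 6 h. The cause of these shifts was not tested. Of 1347 recomputed values of single members, 1094 kept direction and side of the threshold, 235 lost their call, 5 gained one and 13 changed sign. The 13 sign changes concerned uncalled values with 1 library left out. Over those fits Hspb1 at 6 h ranged over -0.3669 to 0.04542 with imeglimin and -1.045 to 0.3112 with metformin. In 4-week colon with imeglimin Hspa1a ranged over -0.8959 to 0.02994 and Hspa1b over -0.7232 to 0.1476. With metformin there, Hspa1a ranged over -0.4144 to 0.5115, Hspa1b over -0.3438 to 0.527 and Bag3 over -0.1742 to 0.0791. Depth limited only Hspa1l, which was under the filter in proximal small intestine.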

Other observations

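In some groups 1 library held the lowest value for many members, and the members of 1 library are not separate evidence. The first control library, Control 1, held the lowest control value for 28 of 34 members in 4-week colon and for 17 in 6 h colon. In small intestine this number was 25 for the proximal, 21 for the middle and 17 for the distal part. Hspa1a was lowest in Control 1 in all 5 sets. In the distal part Control 1 was also the highest control for 13 members. Metformin 3 was the lowest metformin library for 25 members in 4-week colon and for 22, 21 and 18 in the proximal, the middle and the distal part. At 6 h Metformin 3 was the lowest for 4 members and Metformin 2 for 21. Metformin 1 was the highest metformin library for 21 members in the proximal part, so number 1 was not low in every treatment. In distal small intestine imeglimin minus metformin was negative for 29 of 34 members, with a median of -0.12 on the log2 scale, and 0 of them passed edgeR's test (DESeq2 also called 0, and the unadjusted p was under 0.05 for 7). At 6 h in colon the same difference was positive for 32 of 34.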
